A study of Mus musculus with 24 samples.

Results

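The mitochondrial genome of the mouse encodes a small set of respiratory chain subunits, and 10 of them were followed here by their gene symbols: mt-Nd1, mt-Nd2, mt-Nd4, mt-Nd5 and mt-Nd6 of complex I, mt-Cytb of complex III, mt-Co1, mt-Co2 and mt-Co3 of complex IV, and mt-Atp6 of the ATP synthase. All 10 were found among the 23762 symbols of the count table, and all 10 passed the filter on low counts. They were chosen by name, together with 5 further mtDNA genes given below for comparison. The cells were ES-E14TG2a, a line of mouse embryonic stem cells (mESCs), with 4 libraries in each of 6 groups. Naïve cells were held in 2iL, which is LIF with 3 µM CHIR99021 and 1 µM PD0325901. The 2iL+SA group also received 0.5 mM succinylacetone (SA), an inhibitor of the heme synthesis enzyme ALAD, for 48 hr, and the 2iL+SA+H group received SA and 10 µM hemin. EpiLC were switched for 48 hr to 12 ng/ml FGF2 and 20 ng/ml activin A on 15 µg/ml fibronectin, and the EpiLC+SA and EpiLC+SA+H groups received SA, or SA and hemin, during the switch. No group received hemin without SA, and all groups come from 1 cell line. Whether the 4 libraries of a group came from separate cultures is not stated, so p values measure the spread between these libraries.

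Mitochondrial DNA is copied into long RNAs from both strands, which are then cut, mostly at the tRNAs that lie between the genes. The genes of 1 strand therefore share a promoter, but most end up on separate mRNAs, each with its own lifetime. Heme enters this set at 2 points. Cytochrome c oxidase subunit 1, the product of mt-Co1, holds the heme a groups and a copper of complex IV, and cytochrome b, the product of mt-Cytb, holds the b hemes of complex III. The other 8 products bind no heme. The comparisons below ask whether the mRNAs of this set move when heme synthesis is inhibited, whether hemin brings them back, and whether the genes of heme proteins behave apart from the others.

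The libraries count the 3' ends of polyadenylated RNA, so the sequence near the end of each mRNA bears on which reads can be assigned. The ends shown are annotated gene ends, and where the mRNAs themselves end was not measured. The last 60 bases of the genes on which the results turn are shown, read 5' to 3' along the mRNA from GRCm38 (GENCODE M21 annotation). Capitals mark the bases of the stop codon that the genome itself encodes, and each sequence is coding to its end.
mt-Co1: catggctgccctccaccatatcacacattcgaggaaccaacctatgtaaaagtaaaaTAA
mt-Cytb: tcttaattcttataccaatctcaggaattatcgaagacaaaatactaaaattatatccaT
mt-Nd1: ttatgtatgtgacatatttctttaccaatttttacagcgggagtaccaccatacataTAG
mt-Nd2: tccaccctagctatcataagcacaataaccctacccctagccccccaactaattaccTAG
mt-Nd4: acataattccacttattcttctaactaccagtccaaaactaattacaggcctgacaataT
mt-Nd5: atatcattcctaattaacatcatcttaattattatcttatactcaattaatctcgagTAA
These ends lie on the plus strand, mt-Co1 at chrM:6813-6872, mt-Cytb at chrM:15229-15288, mt-Nd1 at chrM:3648-3707, mt-Nd2 at chrM:4892-4951, mt-Nd4 at chrM:11485-11544 and mt-Nd5 at chrM:13506-13565. In mt-Cytb, mt-Nd4 and mt-Co3 the genome encodes only the T of the stop codon, which the poly(A) tail completes. The annotated ends of mt-Nd1 and mt-Nd2 overlap the next tRNA gene by 2 bases, and mt-Co1 overlaps an antisense tRNA gene by 3 bases. The mt-Nd5 gene overlaps mt-Nd6 by 14 bases, on opposite strands. The strand setting of the counting is not given in the sources used here, so reads from that overlap could be assigned to either gene. The same holds for reads of either mRNA that lie past its annotated end and within the other gene.

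Copies of mtDNA in the nuclear genome set a second limit. The authors discarded reads that mapped to several places, and the share of all 50-base stretches of each gene found unchanged in an annotated nuclear transcript was therefore counted. It was 100% for mt-Co2, 99.9% for mt-Co3, 99.5% for mt-Atp6, 62.2% for mt-Nd4 and 51.1% for mt-Co1. It was 8.2% for mt-Nd2 and 7.6% for mt-Nd5, and no such stretch was found for mt-Nd1, mt-Nd6 or mt-Cytb. Within the last 150 bases, mt-Co1 shared all 101 of its stretches, mt-Nd2 shared 53, and mt-Nd4 and mt-Nd5 shared 0. By the authors' processing, the counts of mt-Co1, mt-Co2, mt-Co3 and mt-Atp6, and in part of mt-Nd2, should rest on reads placed once. Their levels are uncertain for this reason. Every stretch of mt-Co2 was shared, yet the gene had 31282 counts in 2iL replicate 1. Which reads gave such counts was not tested. Ratios, differences and shares across genes given below describe counts, and the mRNA amounts of different genes were not compared.

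Library totals ran from 1857964 to 9069538 counts, and 3 libraries had fewer counts than the rest (the shallow libraries): replicate 1 of EpiLC+SA+H, replicate 3 of 2iL+SA and replicate 3 of EpiLC. The pluripotency markers Pou5f1, Sox2, Nanog, Sall4 and Lin28a had a summed level of 1242 to 1595 CPM (counts scaled to library size, after TMM) in the naïve groups. It was 564.1 to 1442 CPM in EpiLC, 400.4 to 717.2 under SA and 996.7 to 1288 under SA with hemin. The 6 primed-state markers summed to 1474 to 2367 CPM in EpiLC. Their sum was 294.3 to 886.8 CPM under SA and 620.5 to 1649 CPM under SA with hemin. The 6 naïve-state markers summed to 92.2 to 556.3, 561.0 to 1002 and 422.2 to 1085 CPM in the same order. The trophectoderm list summed to 109.5 to 264.8 CPM in the naïve groups, where its member Tfap2c averaged 189.1 CPM in 2iL. During the switch it summed to at most 86.2 CPM, and the primitive endoderm list to at most 24.9 CPM. The fibroblast list summed to at most 17.7 CPM in any library, and 1 of its 5 genes in the table was at 0 throughout EpiLC. With SA, the primed-state sum was thus lower and the naïve-state sum higher than in EpiLC, each without overlap. The naïve-state ranges nearly met, at 556.3 and 561.0 CPM. Of the 6 naïve-state markers, 3 were higher at an adjusted p under 0.05 in edgeR (Tbx3, Tfcp2l1 and Esrrb). Klf2, Klf4 and Zfp42 did not pass, and their groups overlapped. Both sums under SA with hemin overlapped those under SA. The part of cell state in the mtDNA results below was not tested.

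Together the 10 genes took 5.01 ± 0.394% of all counts (SD, n = 4) in 2iL, 5.59 ± 1.71% in 2iL+SA and 5.05 ± 0.583% in 2iL+SA+H. During the switch the share was 2.99 ± 0.942% without SA, 3.45 ± 0.542% with SA and 4.06 ± 0.289% with SA and hemin. The ranges of EpiLC (1.99 to 4.20%) and 2iL (4.63 to 5.49%) did not overlap, whereas those of EpiLC+SA (2.78 to 4.10%) and EpiLC did. The 95% Wilson interval of a single library's share reached at most 0.0278 percentage points to either side, and this covers counting error only. The summed share of the 10 genes thus overlapped between EpiLC and EpiLC+SA, while the genes within it moved in opposite directions. Over all 34 mtDNA symbols of the table, the share was 5.78 to 7.90% in EpiLC and 8.31 to 13.54% in EpiLC+SA, with no overlap. In 2iL+SA the 10 genes took 6.24, 6.26 and 6.82% in replicates 1, 2 and 4, each above every 2iL library, and 3.06% in the shallow replicate 3.

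**Figure D1:**
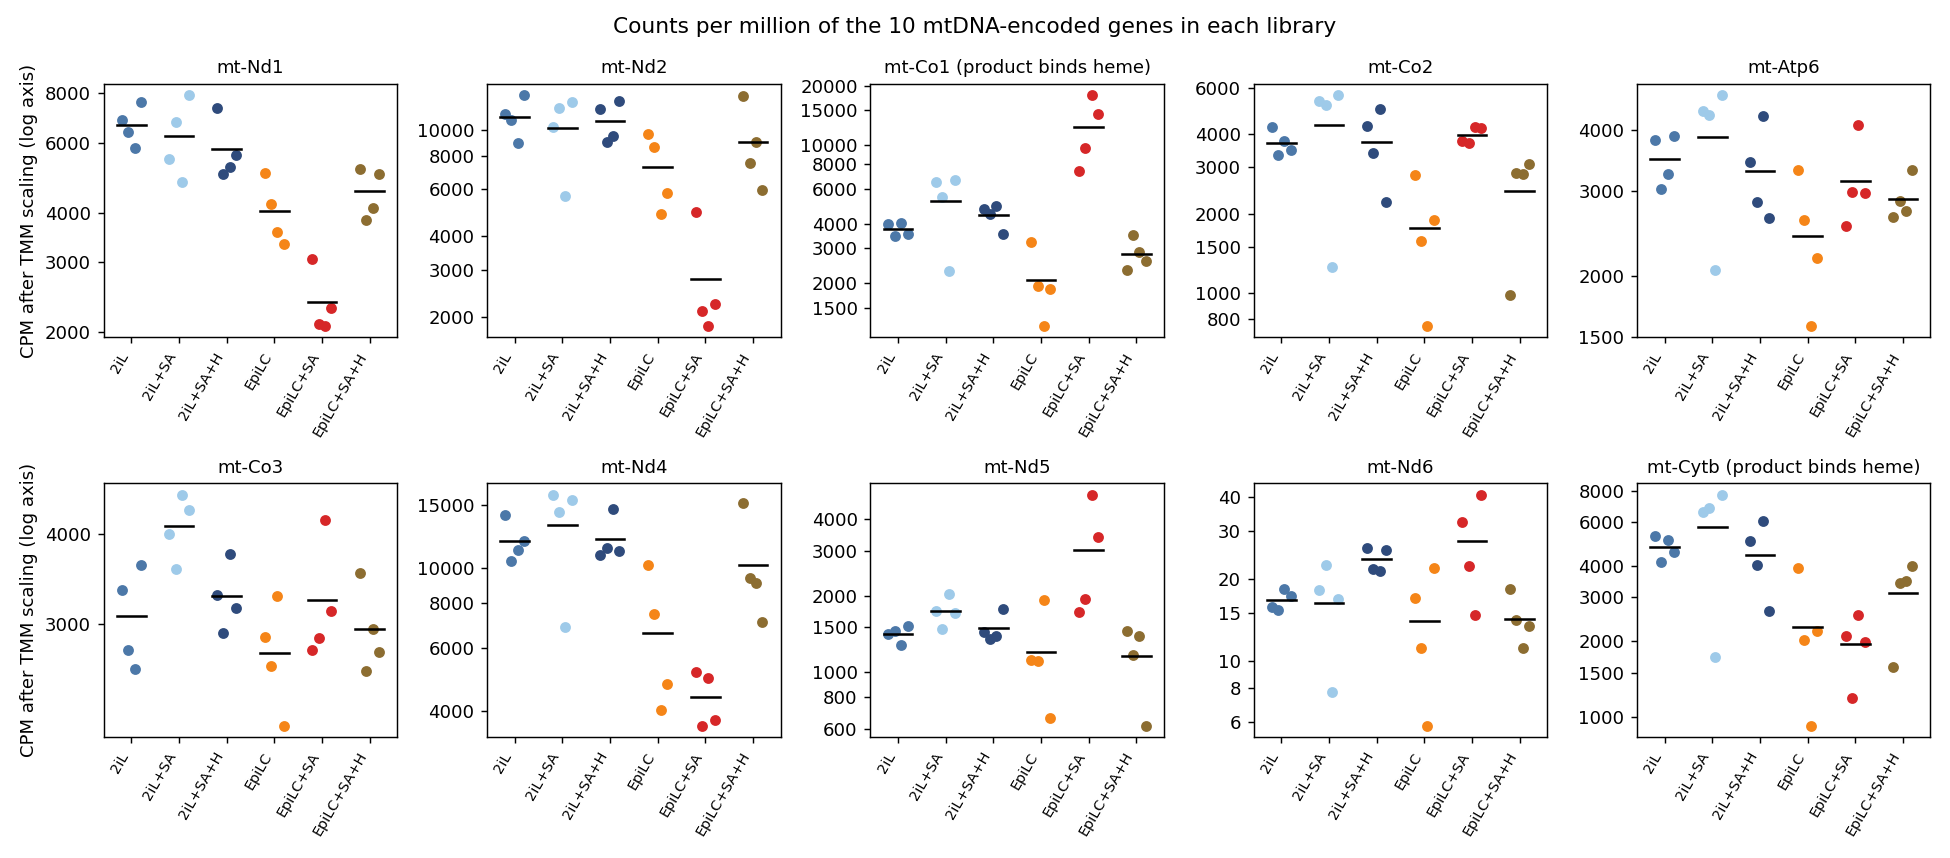
CPM after TMM scaling (log axis) of each of the 10 mtDNA-encoded genes, with 1 point per library, 4 libraries per group and a black line at the group mean. In EpiLC+SA, mt-Co1 lay at 7365 to 17890 CPM, above every library of the other groups, whereas 3 of the 4 mt-Nd2 values lay below those of every other library.

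The switch from 2iL to EpiLC was taken first, as the background on which SA acted. All 10 genes had a lower mean in EpiLC, and 5 fell by edgeR's quasi-likelihood test at an adjusted p under 0.05: mt-Co1, mt-Co2, mt-Cytb, mt-Nd1 and mt-Nd4. Over all 16067 genes tested, 28.3% passed the test in this comparison, 13.4% as lower. In this bulk RNA, fewer cells of a type and less RNA per cell cannot be told apart. For 5 of the 10 genes the EpiLC and 2iL libraries did not overlap, as for 29.9% of all genes.
mt-Nd1, a core subunit of complex I, fell by 0.73 on the log2 scale (SE 0.19, adjusted p = 0.00556 from edgeR), from 6676 ± 757 CPM in 2iL to 4037 ± 761 in EpiLC (SD, n = 4). mt-Nd4, in the membrane arm of complex I, fell by 0.85 (SE 0.27, adjusted p = 0.0210). mt-Cytb fell by 1.07 (SE 0.39, adjusted p = 0.0447) and mt-Co1 by 0.86 (SE 0.29, adjusted p = 0.0288). The mt-Cytb call held in 7 of 17 alternatives and was lost on leaving out any of 7 of the 8 libraries, with adjusted p up to 0.140. mt-Co2, which encodes the subunit that takes electrons from cytochrome c, fell by 1.08 (SE 0.39, adjusted p = 0.0381). The log2 fold changes of the genes that did not pass lay between -0.63 for mt-Nd2 (adjusted p = 0.119) and -0.17 for mt-Co3 (adjusted p = 0.491). This count depended on single libraries. Only mt-Nd1 passed without 2iL replicate 1, without EpiLC replicate 3 or without EpiLC replicate 4, and 2 passed without 2iL replicate 3 or EpiLC replicate 2. Without 2iL replicate 2 or 4 there were 3, and without EpiLC replicate 1 there were 6, with mt-Atp6 added (-0.72, adjusted p = 0.0323).

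Inhibition of heme synthesis during the switch split the set. In EpiLC+SA against EpiLC, 4 genes rose (mt-Co1, mt-Co2, mt-Nd5 and mt-Nd6) and 2 fell (mt-Nd1 and mt-Nd2), so that 6 of 10 passed the test. Of all genes tested, 27.9% passed in this comparison, 12.1% as higher and 15.8% as lower. The median log2 fold change of the 10 genes was 0.31, beside 0.00 over all genes. The libraries of the groups did not overlap for mt-Co1, mt-Co2 and mt-Nd1, as for 25.7% of all genes.

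mt-Co1 had the largest change of the set. Its level was 3254, 1941, 1220 and 1879 CPM in EpiLC replicates 1 to 4, and 7365, 9707, 17890 and 14390 CPM in EpiLC+SA replicates 1 to 4. Each EpiLC+SA library was above each EpiLC library, and above each library of the other 4 groups as well. The log2 fold change was 2.57 (SE 0.31, 5.95-fold, adjusted p = 1.23e-06 from edgeR). It lay between 2.34 and 2.88 over 17 alternative settings and passed the test in all 17.

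mt-Cytb, the other gene of a heme protein, did not share this rise. It was at 3948, 2030, 921.0 and 2201 CPM in EpiLC and at 2093, 1192, 2553 and 1980 CPM in EpiLC+SA. The groups overlapped over most of their range, with a log2 fold change of -0.22 (SE 0.39, adjusted p = 0.709). Without EpiLC replicate 1 the value was 0.19, so its direction rested on that library.

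The count ratio of mt-Co1 to mt-Cytb describes the split within each library. There were 0.824, 0.956, 1.33 and 0.854 counts of mt-Co1 per count of mt-Cytb in the EpiLC libraries. In EpiLC+SA the ratio was 3.52, 8.14, 7.01 and 7.27. The groups did not overlap, and the mean log2 ratio was 2.67 higher in EpiLC+SA, or 6.36-fold. Among the shallow libraries, it was 1.33 in EpiLC replicate 3, 1.33 in 2iL+SA replicate 3 and 1.49 in EpiLC+SA+H replicate 1. In 2iL+SA+H replicate 4, which was not shallow, the ratio was 1.34. Whether depth or RNA quality moved it was not tested. This ratio is a description within libraries, with no test, and it says nothing of the relative amounts of the mRNAs. By the authors' processing the mt-Co1 counts should rest on reads placed once, and whether the share of such reads changed with SA was not tested.

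**Figure D2:**
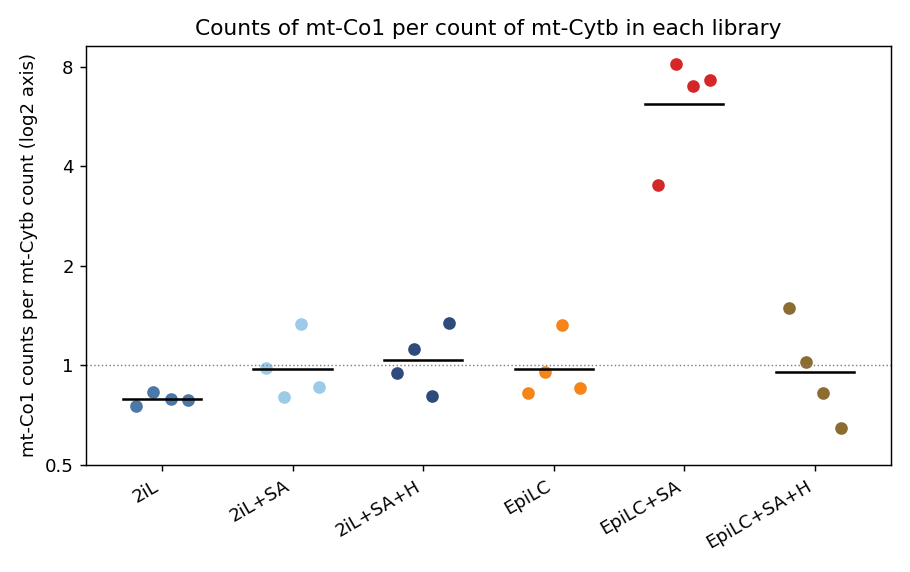
Counts of mt-Co1 per count of mt-Cytb (log2 axis) in each of the 24 libraries, with a black line at the geometric mean of each group and a dotted line at 1. The 4 EpiLC+SA libraries lay at 3.52 to 8.14, and the other 20 at 0.648 to 1.49.

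For the pair of heme protein genes as a class, the mean log2 CPM of mt-Co1 and mt-Cytb was set against that of the other 8 genes. The difference was 0.41 ± 0.41 (SD, n = 4) in EpiLC and 1.45 ± 0.37 in EpiLC+SA, and the ranges of -0.13 to 0.84 and 1.12 to 1.92 did not overlap. The change of 1.05 averaged over a pair of which mt-Co1 passed the test and mt-Cytb did not, as given above. Without mt-Nd6, which has far lower counts, the change was 1.17. This class difference is likewise a description, with no test.

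Among the genes of complex IV, mt-Co2 was at 2796, 1584, 754.1 and 1900 CPM in EpiLC and at 3763, 3691, 4262 and 4214 CPM in EpiLC+SA. The EpiLC+SA libraries lay close together and above all EpiLC libraries, and the log2 fold change was 1.18 (SE 0.39, adjusted p = 0.0250). The call was lost in 5 of 17 alternatives, with adjusted p up to 0.0921 when EpiLC replicate 3 was left out. It was also lost without EpiLC replicate 2 or EpiLC+SA replicate 4, with total counts in place of TMM and without a filter. mt-Co3, whose product completes the mtDNA-encoded core of complex IV, had a log2 fold change of 0.24 (SE 0.17, adjusted p = 0.311). mt-Atp6, which encodes the proton channel subunit of the ATP synthase, had one of 0.38 (SE 0.23, adjusted p = 0.234).

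Complex I genes moved both ways. mt-Nd2 was at 9625, 8653, 4830 and 5801 CPM in EpiLC and at 4919, 2107, 1854 and 2229 CPM in EpiLC+SA. EpiLC+SA replicates 2, 3 and 4 lay below every EpiLC library, and the log2 fold change was -1.38 (SE 0.30, adjusted p = 0.00141). mt-Nd1, whose end lies upstream of mt-Nd2 on the same strand, was at 5037, 4200, 3582 and 3327 CPM in EpiLC and at 3058, 2088, 2072 and 2302 CPM in EpiLC+SA. These groups did not overlap, and the log2 fold change was -0.76 (SE 0.19, adjusted p = 0.00439).

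mt-Nd5 went the other way, from 1121, 1111, 1932 and 660.8 CPM in EpiLC to 1728, 1939, 4978 and 3408 CPM in EpiLC+SA. Only the shallow EpiLC replicate 3 reached into the EpiLC+SA range, and the log2 fold change was 1.32 (SE 0.30, adjusted p = 0.00186). mt-Nd1, mt-Nd2 and mt-Nd5 passed the test in all 17 alternatives, which include leaving out the 3 shallow libraries. mt-Nd4 had a log2 fold change of -0.60 (SE 0.27, adjusted p = 0.103). It became a call without EpiLC replicate 3 (adjusted p = 0.0294) and without the 3 shallow libraries (adjusted p = 0.00236).
mt-Nd6, the only mRNA of the set on the other strand, went from 14.1 ± 7.07 CPM (SD, n = 4) without SA to 27.6 ± 11.4 with it. Its log2 fold change of 0.94 (SE 0.32, adjusted p = 0.0292) passed in 11 of 17 alternatives, and not without EpiLC replicate 2 or 3 or EpiLC+SA replicate 1 or 4. Nor did it pass with total counts in place of TMM or in a fit of only the groups compared. It was the gene with the lowest counts, and the groups overlapped. Whether its counts came from mt-Nd6 mRNA or from RNA of the opposite strand was not tested.

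**Figure D3:**
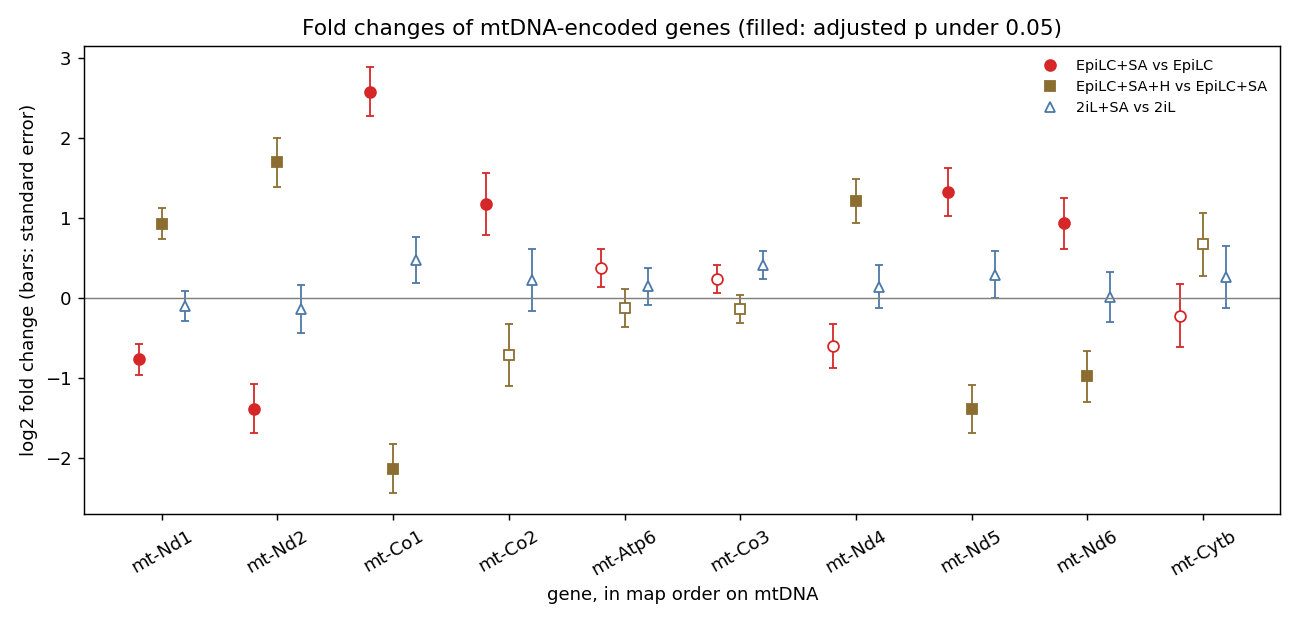
Log2 fold changes of the 10 genes in map order along mtDNA for EpiLC+SA against EpiLC (circles), EpiLC+SA+H against EpiLC+SA (squares) and 2iL+SA against 2iL (triangles), with bars for the standard error and filled symbols for an adjusted p under 0.05. mt-Co1 stood at 2.57 and -2.13 in the first 2 comparisons, which share the EpiLC+SA libraries, and no triangle is filled.

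In terms of make-up, mt-Co1 took 6.70 ± 1.10% (SD, n = 4) of the counts of the 10 genes in EpiLC, and 32.4 ± 7.43% of those in EpiLC+SA. The range was 5.51 to 7.72% in EpiLC and 22.1 to 38.2% in EpiLC+SA. mt-Nd2 went from 21.8 to 26.8% of these counts in EpiLC to 3.96 to 14.7% in EpiLC+SA. mt-Nd4 took 21.2 ± 2.90% without SA and 12.0 ± 2.47% with SA, and mt-Nd5 4.37 ± 2.92% and 7.77 ± 2.44%. EpiLC+SA replicate 1 stood closest to EpiLC, with the lowest mt-Co1 share and the highest mt-Nd2 share of its group. As shares of 1 sum, these values are not independent of each other.

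**Figure D4:**
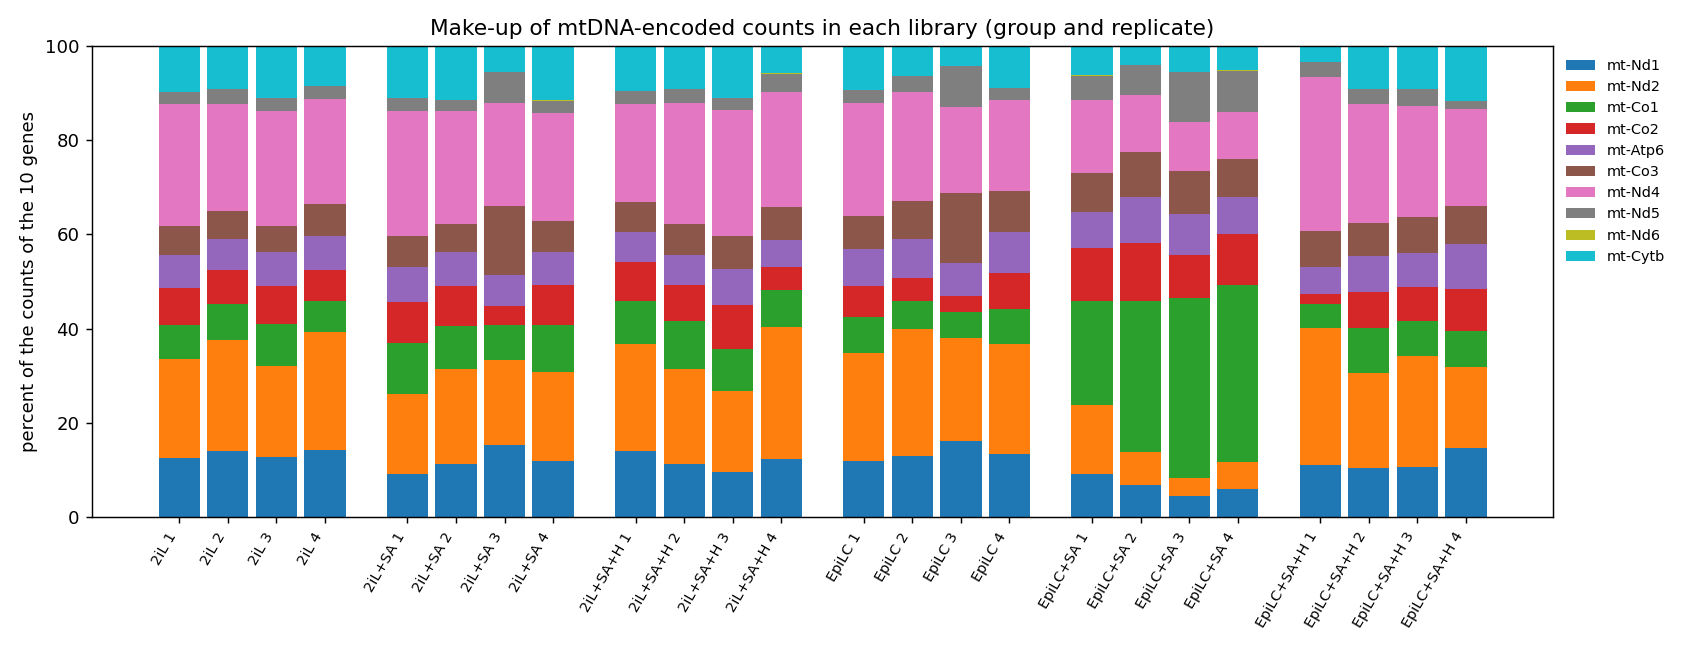
Share of each gene in the summed counts of the 10 mtDNA-encoded genes (percent), with 1 stacked bar for each library, ordered by group and replicate. The share of mt-Co1 was 22.1 to 38.2% in the EpiLC+SA libraries, against 5.51 to 7.72% in EpiLC.

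Hemin was then compared with SA alone, in EpiLC+SA+H against EpiLC+SA. Here 3 genes were higher (mt-Nd1, mt-Nd2 and mt-Nd4) and 3 lower (mt-Co1, mt-Nd5 and mt-Nd6), while 16.5% of all genes tested passed, 10.5% as higher and 5.95% as lower. This comparison shares the EpiLC+SA libraries with the one above, so opposite signs in the 2 comparisons are not independent of each other. The libraries did not overlap for 6 of the 10 genes, as for 20.1% of all genes.
mt-Co1 fell to 2341, 3496, 2870 and 2592 CPM in EpiLC+SA+H replicates 1 to 4, all below every EpiLC+SA library. The log2 fold change was -2.13 (SE 0.30, adjusted p = 2.44e-05 from edgeR), and it passed in all 17 alternatives. mt-Nd2 rose to 13390, 7544, 9006 and 5948 CPM, all above every EpiLC+SA library, with a log2 fold change of 1.69 (SE 0.31, adjusted p = 3.66e-04). mt-Nd1 rose by 0.93 (SE 0.19, adjusted p = 0.00147) to 5153, 3841, 4104 and 5006 CPM, with no overlap.
mt-Nd4 was at 5139, 3654, 4942 and 3784 CPM in EpiLC+SA and at 15140, 9376, 9114 and 7063 CPM in EpiLC+SA+H. These groups did not overlap, and the log2 fold change was 1.22 (SE 0.27, adjusted p = 0.00292). mt-Nd5 fell by 1.38 (SE 0.30, adjusted p = 0.00216) to 1455, 1168, 1386 and 617.9 CPM, each below every EpiLC+SA library. mt-Nd6 fell by 0.97 (SE 0.32, adjusted p = 0.0372), a call that held in 11 of 17 alternatives. The call was lost with total counts in place of TMM, and without EpiLC+SA replicate 1 or 4 or EpiLC+SA+H replicate 2, 3 or 4.
mt-Cytb did not pass, with 1572, 3410, 3475 and 4001 CPM in EpiLC+SA+H and a log2 fold change of 0.67 (SE 0.39, adjusted p = 0.256). The shallow replicate 1 was the low value, and without the 3 shallow libraries the log2 fold change was 0.90 and the adjusted p 0.0155. mt-Co2 (log2 fold change -0.71, adjusted p = 0.217), mt-Co3 (-0.13, adjusted p = 0.661) and mt-Atp6 (-0.13, adjusted p = 0.771) did not pass. The ratio of mt-Co1 to mt-Cytb counts was 1.49, 1.02, 0.826 and 0.648 in EpiLC+SA+H, below every EpiLC+SA library. The class difference of the heme protein genes from the other 8 was 0.67 ± 0.50, that is 0.79 lower on the log2 scale than in EpiLC+SA.

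Against EpiLC itself, EpiLC+SA+H held no gene of the set past the threshold, with 0 of 10 by edgeR and 0 by DESeq2. Of all genes, 0.0622% passed with edgeR and 0.635% with DESeq2. At an unadjusted p under 0.05 in edgeR there was 1 of the 10, beside 1674 of all 16067 genes. The log2 fold changes lay between -0.06 for mt-Nd5 and 0.62 for mt-Nd4 (SE 0.27, adjusted p = 0.427), and the groups overlapped for all 10 genes, while 3.78% of all genes did not overlap. mt-Co1 had a log2 fold change of 0.45 (SE 0.29, adjusted p = 0.594). A p value above the threshold does not show that the levels were equal, and the standard errors of 0.17 to 0.39 give the precision.

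In naïve cells the same agents left no call. In 2iL+SA against 2iL, 0 of 10 genes passed with edgeR and with DESeq2, beside 0.0498% and 1.64% of all genes. At an unadjusted p under 0.05 in edgeR there was 1 of the 10, beside 2048 of all 16067 genes. mt-Co1 was at 3977, 3452, 4025 and 3564 CPM in 2iL and at 6498, 5456, 2303 and 6638 CPM in 2iL+SA, where the shallow replicate 3 lay below and the others above all 2iL libraries. Its log2 fold change was 0.48 (SE 0.29, adjusted p = 0.524), and that of mt-Cytb was 0.26 (SE 0.39, adjusted p = 0.830).
mt-Nd2 had a log2 fold change of -0.14 (SE 0.30, adjusted p = 0.894) and mt-Nd5 one of 0.29 (SE 0.30, adjusted p = 0.726). In 2iL+SA+H against 2iL, 0 of 10 passed with either tool, beside 0.00622% of all genes with edgeR and 0.0374% with DESeq2. In 2iL+SA+H against 2iL+SA, 0 of 10 passed with either tool, beside 0% and 0.00623%. None of the 10 had an unadjusted p under 0.05 in edgeR in either comparison, where 784 and 737 of all 16067 genes did. mt-Nd6 alone did not overlap between 2iL+SA+H (21.5 to 26.0 CPM) and 2iL (15.5 to 18.5 CPM), as for 5.82% of all genes, with a log2 fold change of 0.50 (SE 0.31, adjusted p = 1.00).

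Whether the effects differed between the 2 states was tested as an interaction. The SA effect in EpiLC minus that in 2iL was 2.10 on the log2 scale for mt-Co1 (SE 0.41, adjusted p = 0.00149 from edgeR) and -1.24 for mt-Nd2 (SE 0.42, adjusted p = 0.0486), so that 2 of 10 genes passed beside 14.3% of all genes (5.27% with a positive and 9.07% with a negative difference). The mt-Co1 value passed in all 25 alternatives, and the mt-Nd2 value in 11 of 25, with adjusted p between 0.00427 and 0.100. The mt-Nd2 call was lost on leaving out any of 12 of the 16 libraries. mt-Nd1 became a call without EpiLC+SA replicate 1 (-0.82, adjusted p = 0.0433) and mt-Nd5 without EpiLC replicate 3 (1.33, adjusted p = 0.0282). Without the 3 shallow libraries, mt-Nd1, mt-Nd4 and mt-Nd5 became calls (adjusted p between 0.00396 and 0.0362). For mt-Cytb the difference was -0.48 (SE 0.55, adjusted p = 0.596).
The hemin effect, SA+H against SA, differed between the states for 5 genes, beside 6.33% of all genes (4.57% positive and 1.76% negative). It was more negative in EpiLC for mt-Co1 (-1.89, SE 0.41, adjusted p = 0.00597) and mt-Nd6 (-1.46, SE 0.45, adjusted p = 0.0497). It was more positive for mt-Nd2 (1.60, SE 0.42, adjusted p = 0.0224), mt-Nd1 (1.03, SE 0.27, adjusted p = 0.0214) and mt-Nd4 (1.34, SE 0.38, adjusted p = 0.0341). The mt-Co1 value held in all 25 alternatives, those of mt-Nd1 and mt-Nd2 in 24, that of mt-Nd4 in 16 and that of mt-Nd6 in 9. The mt-Nd4 call was lost on leaving out any of 9 of the 16 libraries and the mt-Nd6 call on leaving out any of 13. The mt-Nd1 call was lost without 2iL+SA replicate 4 (adjusted p = 0.0564) and the mt-Nd2 call without EpiLC+SA replicate 4 (adjusted p = 0.0506). mt-Nd5, at -1.16 (SE 0.42), did not pass (adjusted p = 0.0978). mt-Cytb, at 1.04 (SE 0.55), did not pass either (adjusted p = 0.284), but became a call without the 3 shallow libraries (1.57, adjusted p = 0.00774).

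The 5 further mtDNA genes also moved both ways. With SA in EpiLC, 4 rose and 1 fell, and all 5 passed the test. The 12S rRNA gene mt-Rnr1 rose by 0.81 (SE 0.25, adjusted p = 0.0154) and the 16S rRNA gene mt-Rnr2 by 0.94 (SE 0.21, adjusted p = 0.00180), from 21440 ± 2171 CPM to 41150 ± 14190 (SD, n = 4). mt-Atp8, which overlaps mt-Atp6 by 43 bases, rose by 1.15 (SE 0.22, adjusted p = 3.46e-04). mt-Nd4l, a complex I gene that overlaps mt-Nd4 by 7 bases, rose by 0.99 (SE 0.20, adjusted p = 5.03e-04). The overlapping mt-Atp6 and mt-Nd4 had 0.38 and -0.60 in the same comparison, and neither passed. Whether the genes of such a pair lie on 1 mRNA was not tested.
mt-Nd3, also of complex I, fell by 1.76 (SE 0.35, adjusted p = 5.10e-04), from 296.1 ± 89.2 CPM to 87.1 ± 43.0. The genes called lower with SA were thus mt-Nd1, mt-Nd2 and mt-Nd3, and those called higher included both rRNA genes, mt-Co1 and mt-Co2. In EpiLC+SA+H against EpiLC+SA, 1 of the 5 was higher, mt-Nd3 (2.36, SE 0.35, adjusted p = 5.05e-05), and 4 were lower. In 2iL+SA against 2iL, their log2 fold changes lay between -0.07 for mt-Nd4l and 0.38 for mt-Nd3 (SE 0.33, adjusted p = 0.688), and the groups overlapped for each of the 5.

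Nuclear genes that share 50-base stretches with the set, called copies here, were counted separately, in a list made after the sequences had been compared. The share of a copy's own stretches found in the set ran from 6.3% for Gm11407 to 100% for Gm28661 and others. Of 10 such genes, 9 were tested. In EpiLC+SA against EpiLC, the copies of mt-Co1 Gm29216, on chromosome 1, and Gm13340, on chromosome 2, rose by 3.71 (SE 0.67, adjusted p = 3.25e-04) and 2.17 (SE 0.32, adjusted p = 2.04e-05). The mt-Co2 copy Gm28661 rose by 3.03 (SE 0.61, adjusted p = 7.98e-04) and the mt-Atp6 copy Gm10925 by 1.33 (SE 0.34, adjusted p = 0.00447). The copies did not rise as a class, and the rest of those tested did not pass. Their log2 fold changes were -1.97 for Gm28437 (mt-Co3), -1.04 for Gm4076 (mt-Nd5) and -1.02 for Gm13339 (mt-Nd2). Gm28439 (mt-Nd4) had -0.42 and the second mt-Co2 copy Gm13341 had 0.41. Of all genes tested, 12.1% passed as higher. Whether reads on these copies came from the nucleus or from mtDNA was not tested.

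Nuclear genes that act on mtDNA and its transcripts were taken from lists, and up to 4 genes with the smallest adjusted p are named from each. Of 29 tested genes for mtDNA transcription and transcript handling, 9 fell and 2 rose in EpiLC+SA against EpiLC, with a median log2 fold change of -0.38 beside 0.00 over all genes. The counts of these lists are to be read against the 15.8% lower and 12.1% higher of all genes with SA, and against 5.95% and 10.5% with hemin. Fastkd5, which in human cells is needed for the maturation of mitochondrial mRNAs not flanked by tRNAs, MT-CO1 among them, went from 16.1 CPM in EpiLC to 0.718 in EpiLC+SA (log2 fold change -4.42, SE 0.38, adjusted p = 8.77e-09). Mterf4, a factor of mitochondrial ribosome assembly, fell by 1.70 (SE 0.29, adjusted p = 8.96e-05), and Mterf2, which binds mtDNA, by 1.76 (SE 0.33, adjusted p = 2.93e-04). Hsd17b10, a subunit of the mitochondrial RNase P that cuts at tRNAs, rose by 0.89 (SE 0.18, adjusted p = 6.11e-04).
With hemin, 7 of the 29 were higher and 1 lower, and Fastkd5 went to 15.2 CPM (log2 fold change 4.29, SE 0.38, adjusted p = 4.76e-08). Mterf4 rose by 1.52, Mterf2 by 1.72 and Fastkd3, a relative of Fastkd5, by 1.28 in that comparison (adjusted p between 4.94e-04 and 0.00318). Of 15 tested genes for mtDNA replication and maintenance, 3 fell with SA and 1 rose, close to the shares over all genes. Those that fell were Endog, a mitochondrial nuclease (-1.50, SE 0.33, adjusted p = 0.00134), Lig3, the DNA ligase of mitochondria (-0.79, SE 0.17, adjusted p = 0.00137) and Mgme1, a nuclease of mtDNA (-1.09, SE 0.25, adjusted p = 0.00184).

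Among 10 genes for the synthesis of COX1 and cytochrome b in mitochondria, 2 fell and 1 rose with SA, also close to those shares. Taco1, the translational activator of COX1, fell by 1.85 (SE 0.44, adjusted p = 0.00295), from 5.07 to 1.32 CPM. Mss51, named for the yeast factor of COX1 translation, fell by 2.31 (SE 0.40, adjusted p = 1.15e-04), from 5.07 to 0.968 CPM. Cox14, which binds newly made COX1, rose by 1.19 (SE 0.20, adjusted p = 1.00e-04).
Of 13 genes for heme and copper delivery to cytochrome oxidase, 5 rose and 2 fell. Cox10, which makes the heme A precursor heme O, fell by 1.35 (SE 0.27, adjusted p = 6.08e-04), and Coa7, an assembly factor, had a log2 fold change of -2.64 (SE 0.27, adjusted p = 1.09e-07). Pet100, another assembly factor, rose by 1.74 (SE 0.26, adjusted p = 2.49e-05), and Coa5 by 0.93 (SE 0.26, adjusted p = 0.00906).
The nuclear subunits of complex IV gave 7 higher of 14 with SA (median log2 fold change 0.97), led by Cox7a1 (1.56, SE 0.28, adjusted p = 1.61e-04) and Cox6a1 (0.68, SE 0.16, adjusted p = 0.00204). Those of complex III gave 3 higher of 9 (median 0.49), namely Uqcrb, Uqcrc2 and Uqcrh. Of the 9 tested nuclear regulators of mitochondrial genes, Yy1 (-0.74, SE 0.15, adjusted p = 7.90e-04), Nrf1 (-0.67, SE 0.20, adjusted p = 0.0150) and Myc (-2.85, SE 0.82, adjusted p = 0.0110) fell. In 2iL+SA against 2iL, the median log2 fold changes of these lists lay between -0.34 for the regulators and -0.03 for the replication genes.

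Within groups, the 10 genes did not vary as 1 unit. Across the 24 libraries, as deviations of log2 CPM from the group mean, mt-Cytb and mt-Co2 had a Pearson r of 0.96 (0.87 over the 21 libraries that were not shallow), and mt-Nd1 and mt-Nd2 one of 0.77 (0.70 over 21). For mt-Co1 and mt-Cytb r was 0.83 (0.61 over 21), while for mt-Co1 and mt-Nd2 it was 0.15 and -0.40 over 21. These are descriptions over libraries that share depth and scaling. The non-member genes whose log2 CPM followed the mean of the set most closely over the 24 libraries, of 6436 genes at 20 CPM or more, were Slc12a7 (r = 0.89), the nuclear mt-Co2 copy Gm13341 (r = 0.88), Mtmr4 (r = 0.88), Zwint (r = 0.88) and Zdhhc12 (r = 0.87).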

How the data were processed

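RNA was measured in 24 libraries of ES-E14TG2a mESCs, 4 for each of 6 groups taken from the labels. The authors prepared QuantSeq 3' libraries, sequenced single-end reads of 50 bases, checked them with FastQC 0.11.7, aligned them to mm10 with HISAT2, discarded reads mapping to several loci and counted them with HTSeq (2.7.14 in the submitters' processing notes, which also name SAMtools 1.5). The annotation and strand setting are not given in the sources used here. The deposited values are counts, whole numbers per gene symbol and library.

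Genes were filtered with filterByExpr (minimum count 5, keeping 16067 of 23762), scaled by TMM and fitted in 1 quasi-likelihood model of all 6 groups (edgeR 4.0.16, limma 3.58.1, R 4.3.3, common dispersion 0.0882). Of 9 comparisons, 7 were pairwise and 2 were interactions. The Benjamini-Hochberg adjustment ran over the whole table, with a threshold of 0.05. Correlations and the heme protein contrast used log2 CPM with a prior count of 2. The fit was tested on simulated data. Gene ends came from GENCODE M21 on GRCm38, the assembly that mm10 also names.

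The genes and lists were chosen with earlier results of these data known. All 10 genes are named in each main comparison, with up to 4 genes of smallest adjusted p per list and the 5 most like genes at 20 CPM or more. Genes named beyond this were chosen after their values were seen. Alternatives were DESeq2 1.42.0, other scalings and filters, fits to the compared groups, a replicate block, leaving out the 3 shallow libraries and leaving out each replicate. The replicates of each group differed beyond sampling noise. Figures were drawn with matplotlib 3.10.9.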

Additional observations from a re-analysis of the deposited data

Results flagged for a closer look

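Of 66 tests of a single library's distance from the rest of its group (10 genes and their summed share in 6 groups), 6 stood out. Chance gives about 1 in 20 for a single test. The tests are not independent, since the share sums the same genes of a library, so the 6 cannot be judged by that rate. Of the 6, 4 concerned libraries with few counts. In 2iL+SA replicate 3, mt-Co2 was low at 1262 CPM, mt-Atp6 was low at 2066 CPM and the summed share of the 10 genes was low at 3.056%. In EpiLC+SA+H replicate 1, mt-Co2 was low at 983.8 CPM. The other 2 were high values in libraries of ordinary depth: mt-Nd2 at 4919 CPM in EpiLC+SA replicate 1 and mt-Nd4 at 14620 CPM in 2iL+SA+H replicate 3.

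The SA effect differed between EpiLC and 2iL for mt-Co1, by 2.10 on the log2 scale, and for mt-Nd2, by -1.24. The hemin effect differed by -1.89 for mt-Co1, 1.03 for mt-Nd1, 1.60 for mt-Nd2, 1.34 for mt-Nd4 and -1.46 for mt-Nd6.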

How the results depend on the processing

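The counts of genes called were 5 in EpiLC against 2iL, 6 with SA in EpiLC, 6 with hemin in EpiLC, and 2 and 5 for the interactions of SA and hemin. Without each replicate in turn they ranged from 1 to 6, 4 to 6, 5 to 6, 1 to 3 and 2 to 5. The number was 3 in EpiLC against 2iL and 1 in the SA interaction without a filter, and in the SA interaction 1 in a fit of only the groups compared and 5 without the 3 shallow libraries. The cause was not tested. Replicate numbers were not taken to pair the libraries: 16 of 60 same-numbered pairs had correlations over 0.1, and 8 of 24 libraries correlated best with their own number. In no pair of groups were all 4 same-numbered correlations over 0.1. Between EpiLC and EpiLC+SA they were 0.06 to 0.16, above all 12 others (at most 0.057), and each of these 8 libraries correlated best with its own number, which is a hint from the data and not the design. The replicate block gave 5, 6, 6, 2 and 5 calls. In EpiLC against 2iL it lost mt-Cytb (adjusted p = 0.0501 from edgeR) and gained mt-Nd2 (-0.67, adjusted p = 0.0478), and it changed no other call. In it, mt-Nd6 turned to 0.0563 in EpiLC+SA+H against EpiLC and to -0.0752 in 2iL+SA against 2iL.

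With total counts in place of TMM, the median of all genes moved to 0.18 with hemin in EpiLC and to 0.11 in EpiLC+SA+H against EpiLC, and to -0.15 and 0.20 in the interactions. Under it mt-Atp6 and mt-Co3 turned to 0.0595 and 0.0366 with hemin, and mt-Nd5 and mt-Nd6 to 0.0455 and 0.0314 in EpiLC+SA+H against EpiLC. Calls lost under it were mt-Cytb in EpiLC against 2iL (adjusted p = 0.0552 from edgeR), and mt-Co2 (0.05165) and mt-Nd6 (0.0618) with SA in EpiLC. The mt-Nd6 calls with hemin in EpiLC (0.0973) and in the hemin interaction (0.0970) were lost as well. Without the 3 shallow libraries, the values that turned were mt-Nd6 (0.0186, EpiLC against 2iL), mt-Nd2 and mt-Nd5 (-0.0877 and 0.14, EpiLC+SA+H against EpiLC), mt-Nd1 and mt-Nd2 (0.0240 and 0.0762, 2iL+SA against 2iL), mt-Nd2 (-0.12, 2iL+SA+H against 2iL+SA), mt-Atp6 (-0.15, SA interaction) and mt-Co2 (0.10, hemin interaction). None of the values that turned passed the test in either fit.

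Leaving out single replicates turned 18 values, none of them called. Ranges were -0.51 to 0.19 for mt-Cytb with SA in EpiLC, -0.17 to 0.0638 for mt-Atp6 and -0.20 to 0.0523 for mt-Co3 with hemin, -0.52 to 0.0242 for mt-Nd6 in EpiLC against 2iL, -0.26 to 0.27 for mt-Nd5 and -0.26 to 0.26 for mt-Nd6 in EpiLC+SA+H against EpiLC, and -0.0054 to 0.35 for mt-Atp6 in the hemin interaction. In 2iL+SA against 2iL they were -0.24 to 0.0060 for mt-Nd1, -0.26 to 0.0581 for mt-Nd2 and -0.17 to 0.20 for mt-Nd6. In 2iL+SA+H against 2iL they were -0.22 to 0.0126 for mt-Atp6, -0.17 to 0.18 for mt-Co2, -0.28 to 0.0811 for mt-Cytb, -0.14 to 0.0535 for mt-Nd2, -0.0853 to 0.11 for mt-Nd4 and -0.0217 to 0.12 for mt-Nd5. In 2iL+SA+H against 2iL+SA they were -0.24 to 0.0305 for mt-Nd1 and -0.10 to 0.21 for mt-Nd2. The class difference with SA was 1.05 and ranged from 0.87 to 1.19 over such fits, and with hemin -0.79, from -0.90 to -0.54.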
